A study of Saccharomyces cerevisiae with 2 samples.

Results

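The longest protein-coding reading frames of budding yeast were examined in a map of DNA double strand breaks. Frames were chosen by length alone: nuclear protein-coding genes that span at least 5 kb in the RefSeq R64 annotation, without the frames of Ty transposons and without genes that hold fewer than 5 array probes. Of 117 frames of that length, 40 were Ty frames and 9 held no probe, which left 68 genes. They are 68 of the 2757 nuclear genes that hold 5 probes, cover 453.3 kb and contain 1637 of the 41480 probes (3.95%). All 9 genes without probes, 7 named YRF1 and 2 without a name (YIL177C and YJL225C), had 0 probes each. YRF1 genes encode the helicase-like proteins of the repeated Y′ elements at telomeres, and they are not described further.

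The cells were of strain WFA73, whose genotype is given as mec1 with no allele named, so every sample, G1 DNA included, came from a mutant in MEC1, the gene for a checkpoint kinase that keeps stalled forks intact. Cells arrested in G1 with alpha factor were released for 1 h into 200 mM hydroxyurea, which starves forks of deoxynucleotides, and recovered for 1 h in fresh medium without BPS or with 0.8 micromolar BPS, an iron chelator. Ends of broken DNA were labelled in agarose, with Cy5 for G1 DNA and Cy3 for recovery DNA, and 1 tiling array was hybridised per recovery. The question was whether the chelator changed where breaks lay after hydroxyurea.

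Replication origins in yeast lie mostly between genes, so a long reading frame is a stretch that forks usually cross from outside. Long genes also keep RNA polymerase on the DNA for longer. Many of the longest yeast proteins are scaffolds, motors, giant kinases and multifunctional enzymes, and their genes are scattered over the chromosomes. Their length places many probes in a single gene, which allows the signal to be followed from the start to the end of a frame. For this each frame was cut into 5 equal segments, numbered 1 to 5 from start to end by strand, with 2 kb of flank on either side.

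The level of a gene is the mean over its probes of the log2 ratio, with the median of all probes on the array set to 0. Recovery DNA was assumed to be the numerator of the ratio and G1 DNA the denominator. This assumption rests on the column names alone, which are those of the recovery samples, and it was not tested. The dyes, Cy5 for G1 DNA and Cy3 for recovery DNA, were not used to choose, and the opposite reading is not excluded. The sources used here do not state the numerator, and if it were G1 every sign below would turn. A level is relative to the other probes of its array and carries no total amount of breaks, and DNA copies gained by replication cannot be told apart from broken ends. Both arrays name the same G1 source, and the labels do not say whether it was 1 DNA preparation. Each recovery had 1 array, so differences could not be checked against replicates and carry no p-value. The standard error (SE) is over the probes of a gene, with neighbouring probes not independent, and covers scatter within an array only. The 68 genes held 16 to 59 probes each, with a median SE of 0.08 without and 0.09 with BPS.

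As a group the long frames stood close to the rest of the genome. Their median level was −0.12 without BPS and −0.02 with BPS, against 0.00 and 0.03 over all 2757 genes. Without BPS 29 of the 68 lay above 0 (49.9% of all genes did), and with BPS 33 did (51.3% of all genes). Levels above 0.5 log2 were held by 16 frames without BPS and 15 with it, where the background shares were 27.0% and 28.9%. Levels below −0.5 were held by 15 and 19 frames, against 25.1% and 27.7% of all genes. The frames ran from −1.03 to 1.22 without BPS and from −1.13 to 1.51 with BPS. Their levels spread with an SD of 0.57 and 0.67, against 0.65 and 0.76 over all genes, and these frames hold more probes each than most genes.

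The highest of the long frames was TOR2, which encodes a TOR kinase that controls growth and the actin cytoskeleton. On chromosome XI (probes from 56.1 to 63.1 kb in the coordinates of the deposited table) it had 1.22 ± 0.04 without BPS and 1.51 ± 0.06 with BPS (SE, 25 probes). Every one of its probes was high: the deposited ratios ran from 2.21 to 3.76 without BPS and from 2.30 to 5.31 with it. It was the only frame above 1 log2 unit without BPS (6.67% of all genes were), and after quantile normalization or by the median over probes RIM15 passed 1 as well. With BPS 6 frames were above 1 (12.4% of all genes): TOR2, TRA1 at 1.35, IRA2 at 1.33, TAO3 at 1.26, RIM15 at 1.16 and UTP10 at 1.09. RIM15 encodes a kinase needed for entry into stationary phase, and its level without BPS was 0.98. TAO3, a scaffold gene for cell morphogenesis, had 0.84 without BPS. The proteasome activator gene BLM10 (0.63 and 0.85), SEC16, which encodes the organiser of endoplasmic reticulum exit sites (0.48 and 0.87), NUM1 (0.56 and 0.76) and the phosphatidylinositol 4-kinase gene STT4 (0.83 and 0.48) completed the 10 highest by the mean of both arrays.

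The lowest was CSF1 on XII (307.1 to 315.6 kb), a gene for lipid transfer between membranes, at −1.03 ± 0.05 without and −1.13 ± 0.07 with BPS over 33 probes. No probe in it reached 1 on the linear scale of the deposited ratio: the highest was 0.95 without BPS and 0.98 with it. POL2, which encodes the catalytic subunit of DNA polymerase epsilon, followed at −0.98 and −1.12, then RRP5, needed for processing of ribosomal RNA (−0.97 and −1.11), and SLH1, an RNA helicase gene of ribosome quality control (−0.87 and −1.08). DCK1 (−0.93 and −0.94), BEM2 (−0.83 and −1.01), the spliceosomal helicase BRR2 (−0.81 and −0.96), DOP1 (−0.49 and −0.86), SEN1 (−0.46 and −0.88) and MEC1 (−0.66 and −0.65) made up the rest of the 10 lowest. Only CSF1 was below −1 without BPS (4.06% of all genes), and 5 frames were with BPS (7.69% of all genes): CSF1, POL2, RRP5, SLH1 and BEM2. These counts moved with the scaling: after quantile normalization 4 frames were below −1 on each array, and by the median over probes 2 were without BPS and 5 with it.

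**Figure D1:**
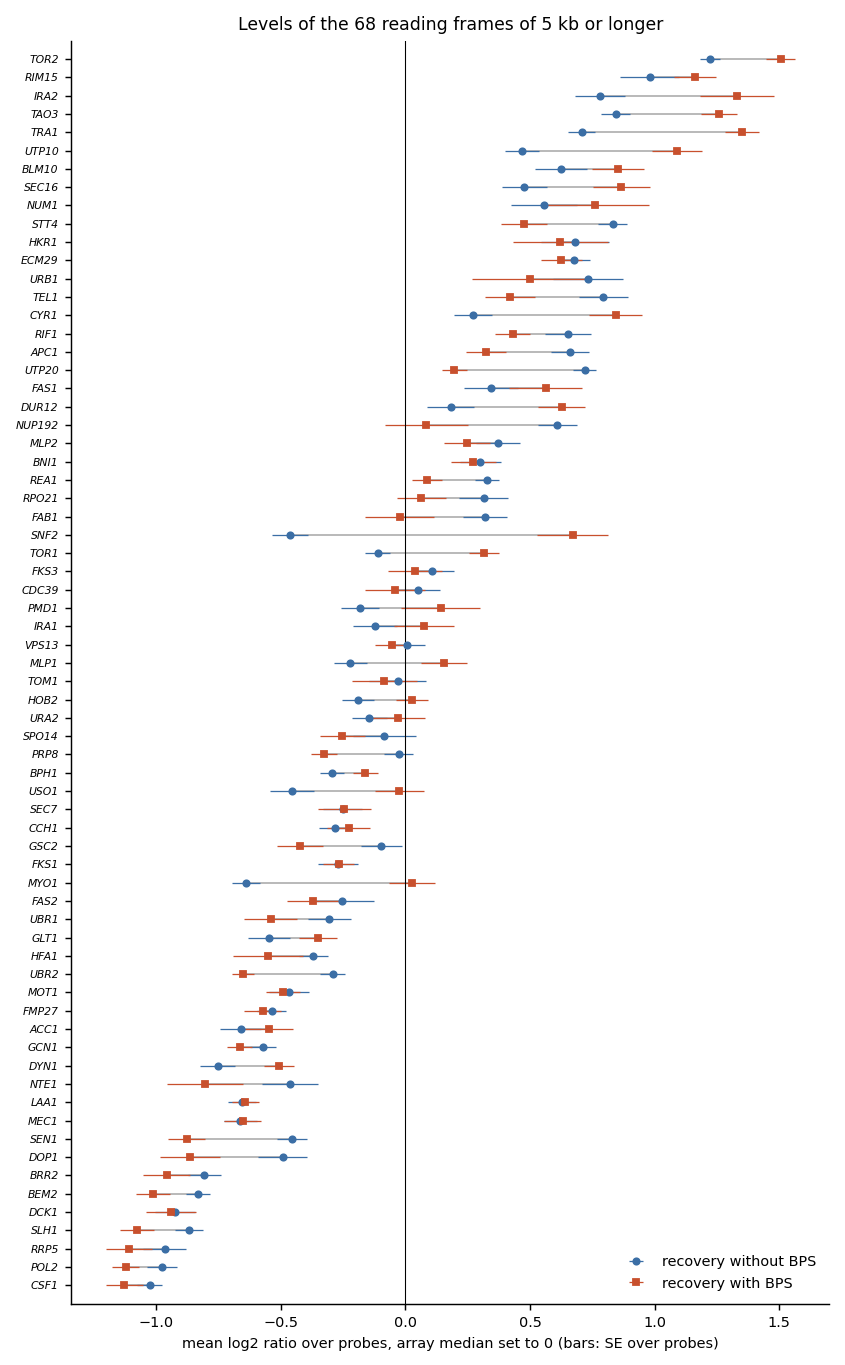
Mean log2 ratio of each of the 68 reading frames (horizontal axis, array median set to 0) without BPS (circles) and with BPS (squares), ordered by the mean of both arrays, with bars for the SE over probes. TOR2 is at the top with 1.22 and 1.51, CSF1 at the bottom with −1.03 and −1.13, and SNF2 has the longest line between its points.

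MEC1 is itself one of the long frames, at II (505.7 to 512.7 kb, 26 probes). Its level was −0.66 ± 0.07 without and −0.65 ± 0.07 with BPS, a difference of 0.01 ± 0.08. Ratios in it ran from 0.51 to 1.43 and from 0.54 to 1.41. Both channels of each array came from the same mec1 strain, so these ratios do not show whether the gene was deleted or altered.

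The second comparison was that between the recoveries. Of the 68 long frames 31 differed by less than 0.2 log2, 30 were higher and 38 lower with BPS, and the median difference was −0.04 (−0.02 over all genes). The split turned with the scaling: 35 frames were higher after quantile normalization and 34 after division by the robust SD of each array. The same counts over all genes are not given here, so nothing is read from the split. Past 0.5 log2, that is 1.41-fold, 6 frames were higher with BPS, where 9.32% of all genes and 7.96% of consecutive 5 kb tiles were. At the same size 2 were lower with BPS, against 5.37% of genes and 4.26% of tiles. By more than 0.3 log2 the counts were 13 higher (20.7% of genes) and 11 lower (19.7%), and by more than 1 log2 only SNF2 was higher (1.92% of genes). These shares were near or under the background and show nothing particular to the long frames.

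SNF2 encodes the ATPase of the SWI/SNF chromatin remodelling complex and lies on XV (855.3 to 859.9 kb). Its 16 probes had ratios of 0.62 to 1.32 with a median of 0.90 without BPS, and 0.69 to 3.65 with a median of 2.06 with BPS. The level went from −0.46 ± 0.07 to 0.67 ± 0.14, a difference of 1.13 ± 0.15 or 2.20-fold, and 15 of the 16 probes were higher with BPS. The rise was not even along the gene. It was 0.72 in segment 1, 0.68 in segment 2 and 0.86 in segment 3, then 1.74 in segment 4 and 1.54 in segment 5. In the 2 kb before its start the difference was 0.64 (−0.18 and 0.47), close to that of segments 1 and 2. In the 2 kb after its end it was 0.26, where both arrays were low (−1.08 and −0.82). The difference was largest in segments 4 and 5, which held 3 and 4 probes. The gain was thus not confined to the frame.

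MYO1, the heavy chain gene of the type II myosin in the contractile ring, lies on VIII (151.8 to 157.2 kb). It went from −0.64 ± 0.06 to 0.03 ± 0.09, a difference of 0.67 ± 0.09 with 20 of 21 probes higher. Its gain was greatest in the middle, with 0.42, 0.87, 1.00, 0.63 and 0.26 from the first to the last segment. In its flanks the difference was 0.20 upstream and −0.04 downstream. Farther upstream, from 2 to 10 kb, the mean difference was 0.83, higher than in the near flank.

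TRA1 encodes the large activator-binding subunit shared by the SAGA and NuA4 histone acetyltransferases, a relative of the PI3K-like kinases without kinase activity. Its 42 probes span VIII from 302.9 to 314.0 kb, and 41 of them were higher with BPS. The level was 0.71 ± 0.05 without and 1.35 ± 0.07 with BPS, a difference of 0.64 ± 0.06 or 1.56-fold. The gain was spread over the whole frame, between 0.48 and 0.81 in every segment. It was 0.57 in the 2 kb upstream and 0.35 in the 2 kb downstream, so it was not confined to the frame. It stood on a slope seen on both arrays, from 0.99 in the first to 0.41 in the last segment without BPS and from 1.59 to 1.08 with BPS.

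UTP10, a gene of the processome that assembles the small ribosomal subunit, had 0.47 ± 0.07 and 1.09 ± 0.10 (difference 0.62, 18 of 19 probes higher). Its difference was 0.32 in the first segment, 0.87 in the last, and 1.08 in the 2 kb downstream, so the gain did not stop at the end of the frame. CYR1, the adenylate cyclase gene on X (425.5 to 431.2 kb), within 50 kb of the centromere, had 0.27 ± 0.08 and 0.84 ± 0.11 (difference 0.57). There the gain was 0.81 in the first segment, 0.99 in segment 2 and 0.38 in the last. In its flanks it was 0.81 upstream and 0.22 downstream. IRA2, which encodes a GTPase activator of Ras and thereby restrains adenylate cyclase, had 0.78 ± 0.10 and 1.33 ± 0.15 (difference 0.55, 33 of 35 probes higher). Its gain ran from 0.42 to 0.81 over the segments and was 0.45 and 0.49 in the flanks. After quantile normalization the differences were 0.48 at TRA1 and 0.37 at IRA2, under the 0.5 limit, while SNF2 kept 1.12 and MYO1 0.71.

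The 2 frames lower with BPS were NUP192 and UTP20. UTP20, also a gene of the small subunit processome, lies within 50 kb of the centromere of II (228.0 to 234.8 kb), and its upstream neighbour is the Ty frame YBL005W-B. It had 0.72 ± 0.05 without and 0.20 ± 0.05 with BPS, and all of its 25 probes were lower with BPS. The loss was even, between −0.36 and −0.65 in the segments, and reached −0.75 in the 2 kb downstream. NUP192, a gene of the inner ring of the nuclear pore, had 0.61 ± 0.08 and 0.08 ± 0.17 (difference −0.53 ± 0.18, 18 of 21 probes lower). Its loss was −0.23 in the first segment and −1.06 in segment 4, where a probe with a ratio of 0.17 stood on the array with BPS. By the median over probes its difference was −0.38, short of 0.5, while TEL1 passed it at −0.54. By means, SEN1 differed by −0.42, TEL1 and DOP1 by −0.38 and −0.37, UBR2 by −0.36, STT4 by −0.36, FAB1, NTE1 and APC1 by −0.34 and GSC2 by −0.33. DUR12 (0.45), USO1 and TOR1 (0.43 each) and TAO3 (0.42) were the highest below the upper limit.

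**Figure D2:**
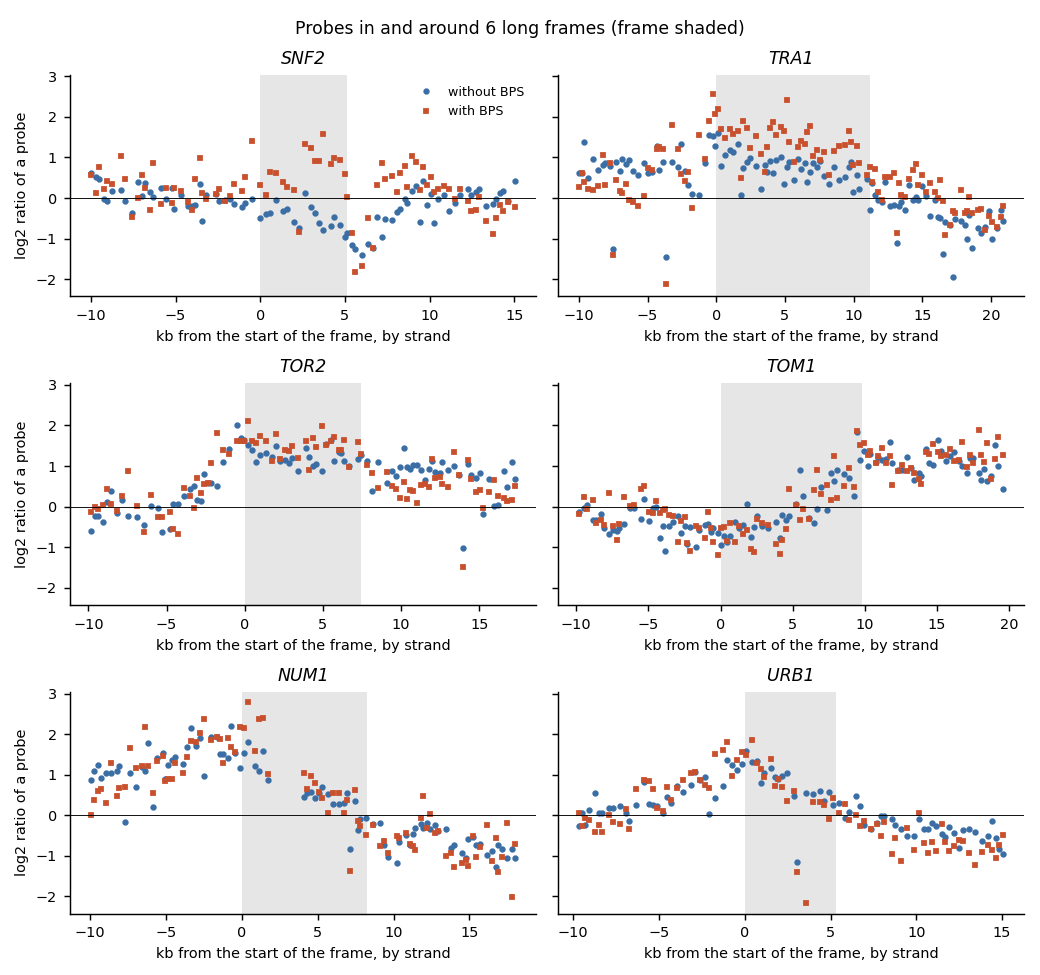
Log2 ratio of every probe (vertical axis) against distance from the start of the frame in kb by strand, for 6 frames (shaded) and 10 kb either side, without BPS (circles) and with BPS (squares). In SNF2 the arrays lie farthest apart late in the frame and also part in places outside it. In TRA1 they part along its whole length and, by their means, in the 2 kb on either side. TOR2 is a plateau above 1, TOM1 rises and NUM1 and URB1 fall from start to end on both arrays.

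The next question was how the signal ran along a gene. No common shape was found. The first segment was above the last in 34 of the 68 frames without BPS and in 34 with BPS, against 47.4% and 43.5% of genes of 2 to 5 kb. The median over frames stayed between −0.13 and −0.03 in all segments without BPS and between −0.15 and −0.04 with BPS. Without BPS the mean of the segments was above the mean of the 2 flanks of 2 kb in 27 frames (39.7%), against 52.7% of shorter genes. With BPS it was above in 37 frames (54.4%), against 56.1%. The median of that difference was −0.04 without and 0.02 with BPS, against 0.01 and 0.03 in shorter genes. Without BPS the median of the long frames stayed below 0 in each alternative (−0.07 to −0.03), but was small beside its quartiles of −0.19 and 0.07. With BPS its sign turned when gene positions were moved by 0.5 kb either way.

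**Figure D3:**
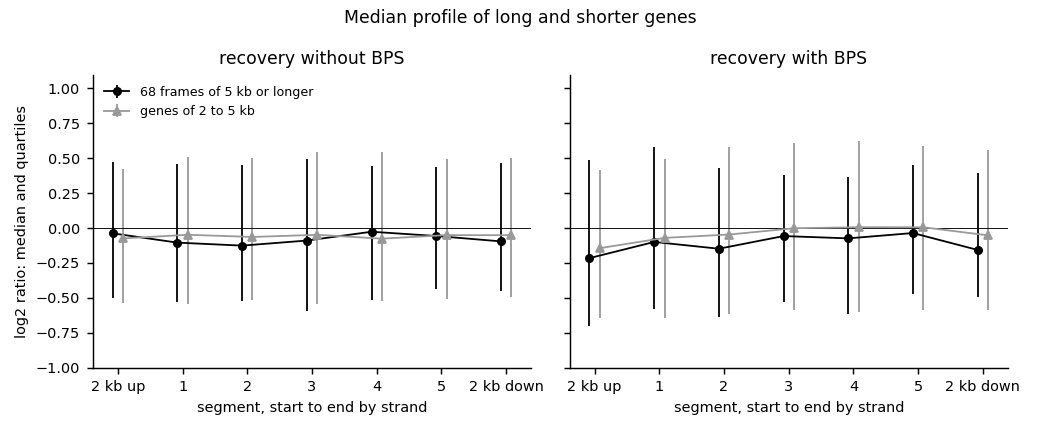
Median log2 ratio (points) and quartiles (bars) in the 2 kb upstream, the segments from start to end and the 2 kb downstream, for the 68 long frames (circles) and genes of 2 to 5 kb (triangles). The medians of the long frames stay between −0.22 and −0.03 on both arrays, well inside the quartiles.

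Some single frames, in contrast, held wide slopes, and so did some shorter genes. Segments 1 and 5 differed by more than 0.5 log2 in 27 frames without BPS (23.5% of shorter genes) and in 27 with BPS (33.7%). In a longer gene these segments also lie farther apart, and the part of that distance was not tested. The median range over the segments was 0.53 without and 0.70 with BPS, against 0.53 and 0.66 in shorter genes. The range was wider with BPS in 52 of the 68 frames (76.5%), against 66.7% of shorter genes. It exceeded 1 log2 unit in 7 frames without BPS (10.3%, against 11.9% of shorter genes) and 10 with BPS (14.7%, against 20.5%). Ranges that wide were thus no more common in the long frames than in shorter genes.

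The steepest frame without BPS, level with NUM1, was TOM1, a ubiquitin ligase gene of the HECT family on IV (first probe at 1369.9 kb). It climbed from −0.58 ± 0.12 in the first segment to 0.90 ± 0.19 in the last without BPS, and from −0.62 to 0.96 ± 0.23 with BPS. Its mean level of −0.03 and −0.09 averages a low start and a high end. NUM1, which encodes the cortical anchor of dynein, ran the other way on IV (755.8 to 763.8 kb), from 1.45 ± 0.13 to −0.02 ± 0.18 without and from 2.26 to −0.17 ± 0.25 with BPS. Within NUM1 a stretch of 2.36 kb, from 1.75 to 4.10 kb after its start, held no probe. The next largest such stretch in any long frame was 0.90 kb in HKR1. Segment 2 of NUM1 rested on 1 probe, so where its fall took place was not resolved. NUM1 and HKR1 both encode proteins with internal repeats, and the sources used here do not say how the probes were chosen.

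HKR1, a gene for a mucin-like membrane sensor, fell from 1.28 ± 0.05 to 0.39 ± 0.20 without BPS and from 1.79 to 0.18 ± 0.22 with BPS. TEL1, a gene for the checkpoint kinase related to Mec1, fell from 1.27 ± 0.06 to 0.16 ± 0.28, and with BPS from 0.86 to −0.02. IRA1, the paralog of IRA2, rose from −0.46 ± 0.10 to 0.58 ± 0.07, and with BPS from −0.27 to 1.06. GLT1, the glutamate synthase gene, fell from −0.06 to −1.08, and with BPS from −0.11 to −0.81. DYN1, the dynein heavy chain gene, rose from −1.03 ± 0.11 to −0.07 ± 0.12 over 12.3 kb, and with BPS from −0.86 to −0.06. URB1, a gene for assembly of the large ribosomal subunit, had the second widest range with BPS at 2.37, but 1 probe in its segment 4 made it. That segment held 2 probes, at −2.18 and 0.33 with BPS, with a mean of −0.93 ± 1.25. PMD1 (0.57 without and 1.53 with BPS) and URA2, which encodes the first enzymes of pyrimidine synthesis (0.71 and 1.32), also had wider ranges with BPS than without.

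Other frames were flat. TOR2 had a range of 0.16 without BPS, the narrowest of the 68, and 0.37 with BPS. FAS1, a fatty acid synthase subunit gene, had 0.23 without but 0.96 with BPS, while LAA1 and SLH1 had 0.21 with BPS. REA1, the longest frame at 14.7 kb, also known as MDN1 and encoding the giant ATPase that remodels pre-60S ribosomes, had segment means of 0.62, 0.46, 0.13, 0.21 and 0.22 without BPS. With BPS they were 0.50, 0.08, −0.00, −0.30 and 0.13, and 46 of its 59 probes were lower with BPS, for a difference of −0.24 ± 0.06. The difference between the arrays had the same sign in all segments in 29 frames. It was positive throughout in 15 (18.1% of shorter genes) and negative throughout in 14 (17.8%).

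**Figure D4:**
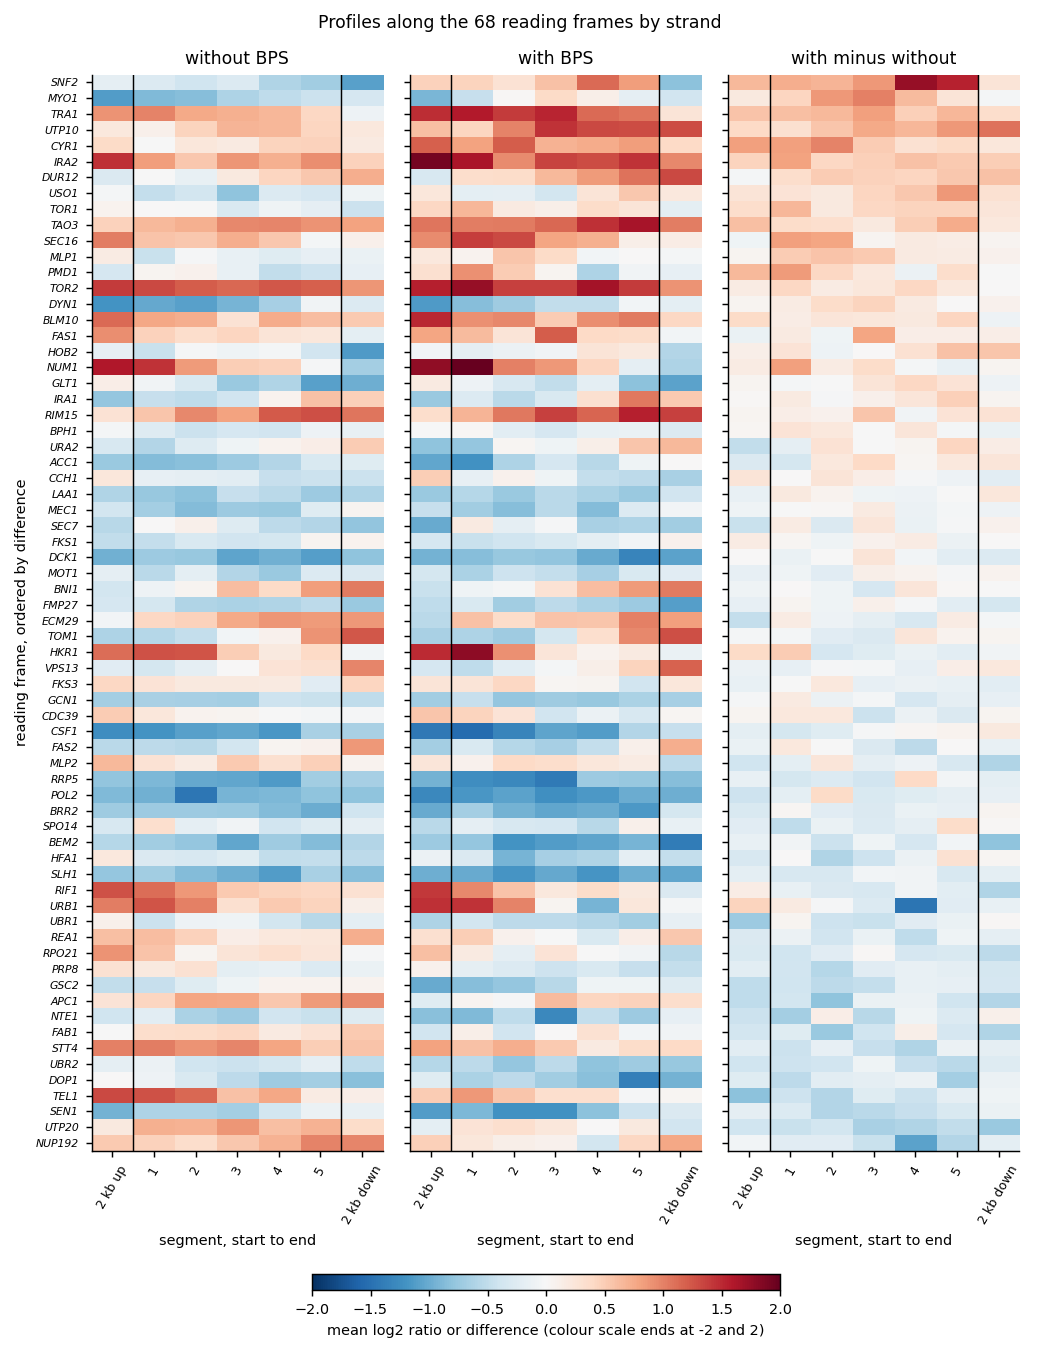
Mean log2 ratio in the flanks and segments of each of the 68 frames (rows, ordered by the difference) without BPS, with BPS, and their difference, in colour from −2 to 2. SNF2 at the top gained most in its segments 4 and 5 (1.74 and 1.54), and in the left panel TOM1 rises and NUM1 falls from start to end.

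By role, no list had all of its members past 0.5 log2 in the difference. Over all genes 9.32% were higher and 5.37% lower by that much, and 49.9% without and 51.3% with BPS lay above 0. The lists are short, and some genes, among them TRA1 and SEN1, stand in more than 1 list. The PI3K-like and phosphoinositide kinases numbered 7, with median levels of 0.71 and 0.42 in the recoveries without and with BPS and 5 genes above 0 on each array. TOR2, STT4, TEL1, TRA1 and FAB1 (0.32 and −0.02) were the 5 above 0 without BPS, while TOR1 had −0.11 and 0.32 and MEC1 was low. Only TRA1 passed 0.5 log2 with BPS. Genes for ribosome assembly held both directions: UTP10 was higher, UTP20 lower, and URB1 (0.73 and 0.50), REA1 (0.33 and 0.09) and RRP5 differed by −0.14 to −0.24. The median of those 5 was 0.47 and 0.20.

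Genes of replication, repair and telomeres had a median of −0.46 and −0.65 over 5 members, with none past 0.5 log2. RIF1, a telomere protein gene that also delays late origins, had 0.65 and 0.43, and TEL1 had 0.79 and 0.42, while POL2, MEC1 and SEN1, an RNA-DNA helicase gene, were low. The 3 genes listed for splicing and RNA helicases (PRP8, BRR2 and SEN1) were below 0 on both arrays, as was SLH1, which that list does not hold. Of all genes 49.9% were above 0 without and 51.3% with BPS. PRP8, the core spliceosome gene, had −0.03 and −0.33. Of the 5 genes listed for RNA polymerase II transcription and chromatin, SNF2 and TRA1 were higher by more than 0.5 log2, where 9.32% of all genes were. The polymerase subunit gene RPO21 (0.31 and 0.06), the CCR4-NOT scaffold gene CDC39 (0.05 and −0.04) and MOT1 (−0.47 and −0.49) were not.

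The control of Ras and cyclic AMP showed the highest median difference of any list, 0.38 over 4 genes, with CYR1 and IRA2 past the limit, IRA1 at 0.20 and BEM2 at −0.18. The 8 metabolic enzyme genes had medians of −0.20 and −0.19. Among them ACC1, for acetyl-CoA carboxylase, had −0.66 and −0.55, FAS1 0.34 and 0.56, FAS2 −0.26 and −0.37, URA2 −0.14 and −0.03, and the urea amidolyase gene DUR12 0.18 and 0.63. GLT1 (−0.55 and −0.35) and POL2, both genes for iron-sulfur proteins, differed by 0.20 and −0.15. Of the 9 genes listed for vesicle traffic and lipid transfer 1 lay above 0 on each array, where 49.9% of all genes did without and 51.3% with BPS. It was VPS13 without and HOB2 with BPS (0.03), both close to 0. None of the 9 passed 0.5 log2, against 9.32% of all genes higher and 5.37% lower. SEC16, which that list does not hold, lay above 0 on both arrays (0.48 and 0.87). VPS13 (0.00 and −0.06), SEC7 (−0.25 on both) and FMP27 (−0.54 and −0.57) were almost equal on both arrays, and the tether gene USO1 had −0.46 and −0.02.

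Cytoskeletal genes ran from BEM2 to TAO3, with a median of −0.17 and 0.15 over 6. MYO1 was the only one past the limit, DYN1 differed by 0.25 and the formin gene BNI1 by −0.03. Of the 3 genes of the nuclear pore and its basket, MLP1 differed by 0.38 and MLP2 by −0.12, and NUP192 was lower. Glucan synthase genes FKS1 (−0.27 on both), GSC2 (−0.10 and −0.42) and FKS3 (0.11 and 0.04) stayed within 0.5 log2, as did the ubiquitin and proteasome genes ECM29 (0.68 and 0.63), UBR1 (−0.31 and −0.54), BLM10 and TOM1. GCN1, a gene of the amino acid starvation response, had −0.57 and −0.67.

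Some paralogs stood far apart in level and others did not. TOR1 stood 1.34 below TOR2 without and 1.19 below with BPS, and IRA1 stood 0.90 and 1.26 below IRA2. MEC1 was 1.46 and 1.07 below its relative TEL1. FKS1 and GSC2, the closest pair in function, were 0.17 apart without BPS and 0.16 apart, in the other order, with BPS. ACC1 was 0.29 below its mitochondrial counterpart HFA1 without BPS and level with it with BPS (−0.55 each). MLP1 was 0.59 below MLP2 without BPS and 0.09 below it with BPS. FMP27 was 0.35 and 0.60 below HOB2. FKS3 stood above both of its relatives on each array, by 0.20 to 0.46. Probes of paralogs can share signal where their sequences match, and this was not tested.

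Of 6 pairs of neighbouring long frames, some were far apart in level: SEC16 and MOT1 on XVI, with 5.27 kb between their outer probes, differed by 0.94 without and 1.36 with BPS, and BNI1 and POL2 on XIV, 13.3 kb apart, by 1.28 and 1.40. DOP1 and NUM1 on IV, 16.0 kb apart, differed by 1.05 and 1.62. MEC1 and IRA1 on II, 4.91 kb apart, differed by 0.54 and 0.73, with IRA1 higher. SPO14 and DYN1 on XI differed by 0.67 without and 0.25 with BPS, and DCK1 and SEN1 on XII by 0.47 and 0.06. The 8 frames within 50 kb of a centromere had medians of 0.30 and 0.11, and the 60 farther out −0.13 and −0.04. Over all genes the medians were 0.34 and 0.33 near centromeres and −0.06 and −0.04 farther out.

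Near tRNA genes more of the genome gained signal with BPS: within 2 kb of one, 28.9% of all genes were higher by more than 0.5 log2, against 7.14% elsewhere. Lower by that much were 3.97% of all genes near tRNA genes and 5.52% elsewhere. Of the 11 long frames so placed, SNF2 and CYR1 were higher by that much and NUP192 and UTP20 were lower. The other 57 held 4 that were higher and 0 that were lower. Of 3 frames within 10 kb of a Ty frame, UTP20 was lower, and neither BLM10 nor GSC2 passed 0.5 log2. Over all genes 16.3% were higher and 5.88% lower within 10 kb of a Ty frame, against 8.91% and 5.34% elsewhere. The part that tRNA genes and Ty frames had in these values was not tested. By chromosome, both frames of XV (SNF2 and IRA2) and 2 of 4 on VIII (TRA1 and MYO1) were past the upper limit, while none of 9 on XII was, of which 1 was higher with BPS at all. Over all genes the share past that limit was 10% on XV, 11.4% on VIII and 10.8% on XII, so with so few frames nothing is read from these counts.

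Length was compared last. From genes of 1 to 2 kb to frames of 5 kb or longer, the median level moved from 0.07 to −0.12 without BPS and from 0.07 to −0.02 with BPS. The SD of the difference went from 0.41 to 0.33 as the median number of probes rose from 6 to 22.5. The share higher with BPS by more than 0.5 log2 was 10.3% at 1 to 2 kb, 6.09% at 4 to 5 kb and 8.82% in the long frames, where 6 genes make that share. The frames nearest the limit were MLP2 and NTE1 at 5.04 kb inside it. Just outside were RPA190, a subunit gene of RNA polymerase I (levels −1.12 and −1.31), YBT1 (−0.08 and −0.16) and GCN2 (−0.17 and 0.86), which encodes the kinase that senses uncharged tRNA. GCN2, at 4980 bases, had a difference of 1.02, which among the long frames only SNF2 passed.

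**Figure D5:**
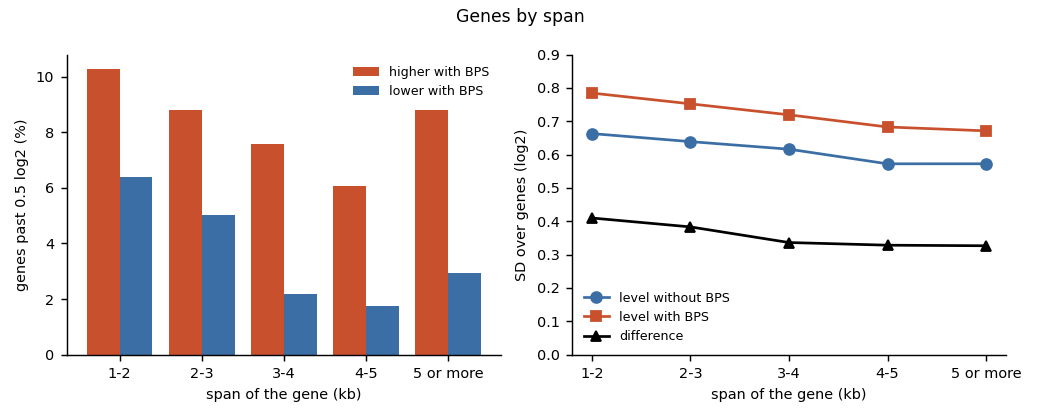
Left, percentage of genes higher or lower with BPS by more than 0.5 log2, by span of the gene. Right, SD over genes of the level on each array and of the difference; the SD of the difference falls from 0.41 at 1 to 2 kb to 0.33 at 5 kb or more, while the share of higher genes is 8.82% in the longest class.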

How the data were processed

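The authors deposited normalized values as a linear ratio for every probe of both arrays. The submitters' processing notes list Agilent Feature Extraction, version 9.5.1. How the ratio was normalized, its numerator and its genome build are not given in the sources used here. Deposited ratios, with medians of 1.21 without and 1.23 with BPS, were converted to log2 and centred on each array's median. Spot intensities were not analysed here. With 1 array per group, the arrays' number limits the precision.

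Gene names, spans and strands (from the locus tags) were taken from RefSeq for R64. Its coordinates are not printed, since the build of the table is unknown. The 40 Ty frames (unnamed, 5.2 to 5.45 kb) held 2 probes in all. A level is a mean over the probes inside a gene. Python 3.11.15, NumPy 2.4.6 and pandas 2.3.3 were used, and the calculation was tested on simulated data. Alternatives changed the scaling, the summary over probes, the span limit, the probe positions, the number of segments and the size limit.

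The members, lists and limits were chosen with earlier results of these data known. Named genes were the 5 longest, the 10 highest and lowest, the 10 largest differences each way, the 5 widest ranges over segments, those beside the 5 kb limit, MEC1, and members of the role and paralog lists.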

Additional observations from a re-analysis of the deposited data

Results flagged for a closer look

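At 2 of the long frames the level lay below the array median in the recovery without BPS and above it in the recovery with BPS, with a difference past 0.5 log2. SNF2 went from −0.46 to 0.67, which is higher by 1.13. MYO1 went from −0.64 to 0.03, which is higher by 0.67. With 1 array per recovery these differences were not tested. At any size of difference, 7 of the 68 frames went from below to above the array median with BPS, and 3 went the other way. Over all genes 9.32% were higher by more than 0.5 log2. The share of all genes that also crossed the median is not given here, so nothing particular to the long frames is read from this count.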

How the results depend on the processing

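Of 106 group values recalculated under alternatives, 95 stayed within the median SE over probes of a single frame or, for counts, within 1.5 times. That SE is wide beside the median difference, so a change of its sign could count as the same. Some values could not move: every frame held at least 16 probes, so a limit of 10 probes left all frames in. Of 204 values of single frames, 44 moved by their SE or more after quantile normalization and 43 by the median over probes. Without centring the median level was 0.16 without and 0.27 with BPS, and that of all genes 0.27 and 0.32. Frames of at least 6 kb gave 3 higher and 1 lower past 0.5 log2. Leaving out frames within 2 kb of a tRNA gene left 0 lower, and leaving out those within 10 kb of a Ty frame left 1 (both chosen after seeing the data). At 0.3 log2 24 frames were past the limit, and at 1 log2 1 was. Division by the robust SD gave a median range over segments of 0.65 without BPS, and 3 segments in place of 5 gave 0.39 and 0.47. The median difference turned from −0.04 to 0.02 after quantile normalization, with 35 frames higher in place of 30, and to 0.01 for frames of at least 6 kb. By the median over probes IRA2 (0.49) and CYR1 (0.50 after rounding) fell under the upper limit. None of the 8 frames past 0.5 log2 changed sign under quantile normalization or medians. No paired analysis was possible because each recovery had 1 array. Differences near the SE over probes (median 0.08) cannot be told apart from probe scatter.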
